A study of Mus musculus with 24 samples.

Results

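The keratin family was taken as every protein-coding mouse gene whose symbol is Krt followed by a number. Hair keratin-associated genes and 2 keratin pseudogenes were left out. This gave 53 genes of the 63862 genes and loci listed per library, 28 of type I and 25 of type II. In the GENCODE M21 annotation (genome build GRCm38) 27 of them lie on chromosome 11 between 99232761 and 100269871, and 26, all type II genes plus the type I gene Krt18, lie on chromosome 15 between 101347444 and 102032027. The deposited tables hold gene identifiers and no positions.

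RNA sequencing was used to compare lacrimal gland stem cell (LGSC) spheres with the lacrimal gland (LG), the tear-producing gland of the eye, and all mice were C57BL/6. LGSC spheres came from LGs of mice aged 6 to 8 weeks and were grown in Matrigel in a serum-free medium with EGF, FGF10, Wnt3A and the ROCK inhibitor Y-27632, so every sphere group shares these agents. Spheres of passage 2 were taken at day 5 (2 libraries) and at days 7, 10 and 14 (3 libraries each), and 1 library came from spheres of passage 10 at day 7. Glands without culture came from adult mice, from embryos at E17.5 and at E19.5 (E, embryonic day), with 3 libraries each. The labels give no age for the adult LG and do not say whether embryonic glands were pooled or whether replicates came from separate animals or cultures, so p-values measure only the spread between these libraries. One more day 5 library and spheres of passages 6 and 20 were not analysed here.

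Keratins are the intermediate filament proteins of epithelial cells. A filament needs a type I and a type II partner, and the pairs mark the kind of epithelium: Krt5 with Krt14 in basal cells, Krt8 with Krt18 in simple and glandular epithelium, Krt6 with Krt16 and Krt17 in wounded or fast-growing epithelium, Krt1 with Krt10 in the upper epidermis, Krt4 with Krt13 in wet stratified epithelium such as the conjunctiva and the mouth. In the LG, Krt14 and Krt5 mark duct basal cells and myoepithelial cells, and Krt7 and Krt19 mark duct cells.

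Values are FPKM, that is fragments per kilobase of transcript divided by a scale set for each library. Reads recovered from the steps of the values came to 6434281 to 9257023 per library in the 20 passage 2 and gland libraries and 25172946 in the passage 10 library, and 1 read on a transcript of 1 kb was worth 0.104 to 0.415 FPKM in the 20. Several genes that every cell uses are listed at or near 0 in all 20: Eef1a1, a translation factor, reached at most 0.562 FPKM there against 3461 FPKM in passage 10, and Rpl8, a ribosomal protein, was at 0 against 1317 FPKM. Of 5332 genes with at least 10 FPKM in passage 10, 577 (10.8%) were at 0 in all 20 libraries and 2695 (50.5%) had a day 7 mean under 0.1 of the passage 10 value. A keratin at 0 or at a low value in the 20 libraries is therefore given as listed, not as absent, no gene is called lower than another from these levels, and differences are tested only within the 20, with passage 10 set beside them by value. In adult LG replicates 1 and 2 the top 10 genes took 60.4% and 59.6% of the reads, against 31.3% in adult replicate 3 and at most 8.1% elsewhere. Their recovered reads were also 2.67 and 2.57 times the scale of the FPKM, against 0.832 to 1.13 times in all other libraries. FPKM of adult replicates 1 and 2 are thus high for their recovered reads, also in adult means and SDs. The rescaled fits below use recovered reads in place of that scale.

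Of the 53 keratins, 14 reached 5 FPKM in at least 1 of the 20 libraries, 11 had their highest value between 0.5 and 5 FPKM, and 28 stayed under 0.5 FPKM. Of the last, 5 were at 0 in all 20 libraries, namely Krt8, Krt16, Krt6b, Krt23 and Krt26. By class, under 0.5 FPKM throughout were 11 of 15 hair keratins, 6 of 8 root sheath keratins, 6 of 13 suprabasal keratins, 3 of 4 stress keratins, 2 of 6 simple keratins and none of the 3 basal keratins. The heat map of keratin levels shows Krt17 and Krt18 as the broad bands across the libraries, and a column pattern within the spheres that follows the replicate number.

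**Figure D1:**
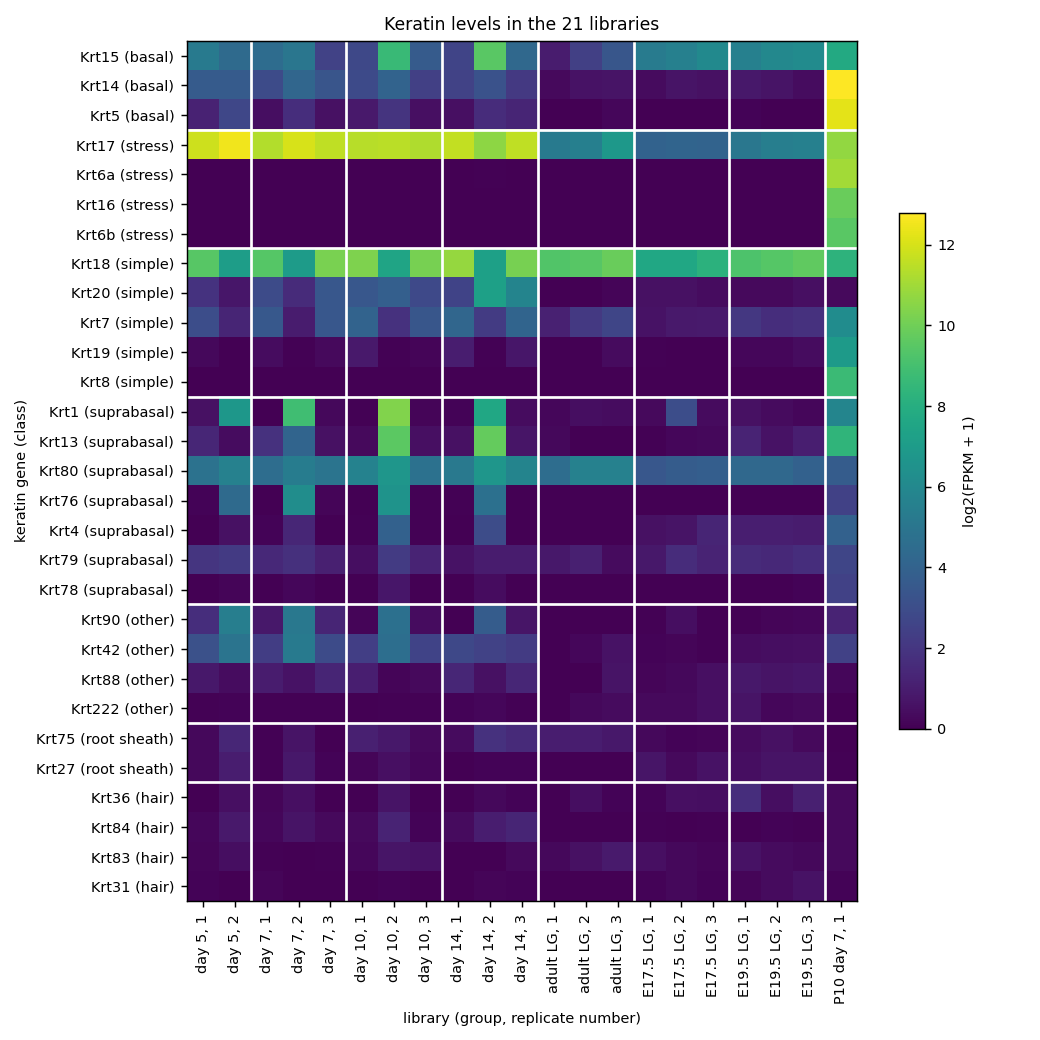
Heat map of log2(FPKM + 1) for 29 keratins (rows, with their class) in the 21 libraries (columns, group and replicate number). Shown are keratins that reached 0.5 FPKM in the 20 libraries or 10 FPKM in passage 10; Krt17 is bright in all spheres, Krt1, Krt13, Krt76 and Krt90 are bright mainly in replicate 2 of the spheres, and Krt14, Krt5 and Krt6a are bright in passage 10.

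Among the basal keratins, Krt14 (chromosome 11, 100203162 to 100207548, minus strand) was higher in spheres than in glands. Its levels were 11.9 and 11.6 FPKM at day 5, 6.51, 17.8 and 9.53 FPKM at day 7, 6.43, 15.7 and 4.41 FPKM at day 10, and 4.66, 8.18 and 3.35 FPKM at day 14, in the order of the replicate numbers. All 9 gland libraries lay between 0.236 and 0.781 FPKM, so the spheres and the glands did not overlap. The share of all genes whose groups did not overlap was not counted, here or for the keratins below. Krt5, its type II partner, was at 1.34 and 5.52 FPKM at day 5, at 0.395, 2.16 and 0.51 FPKM at day 7, at 0.826, 2.73 and 0.422 FPKM at day 10 and at 0.461, 2.05 and 1.54 FPKM at day 14. In glands Krt5 was at 0 in 7 of the 9 libraries, with 0.18 FPKM in adult replicate 3 and 0.104 FPKM in E19.5 replicate 1.

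Krt15, a type I keratin of basal cells, was the basal keratin whose levels split the glands by age. It was listed at 0.938, 4.28 and 9.79 FPKM in adult LG, 38.3, 46.2 and 66.8 FPKM in E17.5 LG, and 46.9, 61.5 and 70.5 FPKM in E19.5 LG. All 6 embryonic libraries were above all 3 adult libraries. In spheres Krt15 ran from 4.68 to 36.2 FPKM in 9 of the 11 libraries, with 407 FPKM in day 10 replicate 2 and 719 FPKM in day 14 replicate 2.

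Of the stress keratins, Krt17 (chromosome 11, 100256217 to 100261029, minus strand) was the 1 listed above 0.05 FPKM in the 20 libraries. It stood at 3552 and 5800 FPKM at day 5, 2519, 4123 and 3018 FPKM at day 7, 2771, 2817 and 2428 FPKM at day 10, and 3079, 1580 and 3011 FPKM at day 14. In glands it was 37.7, 45.1 and 111 FPKM in adult LG, 15.5, 16.7 and 15.9 FPKM in E17.5 LG and 32.9, 43.2 and 46.6 FPKM in E19.5 LG. The lowest sphere library was thus more than 10 times the highest gland library. Krt16 and Krt6b were listed at 0 in all 20 libraries and Krt6a in 19, with 0.0498 FPKM in day 14 replicate 2. Krt6a and Krt6b share many stretches of sequence: 45.5% and 50.1% of the 50-base windows of their longest transcripts also occur in another gene, mostly in each other, so reads can be lost or split between them. The shared part was 37.6% for Krt16, 14.4% for Krt14, 8.52% for Krt5 and 4.0% for Krt17.

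The simple keratins split in the spheres. Krt18 (chromosome 15, 102028180 to 102032027, plus strand), the type I keratin of glandular cells, was at 710 and 139 FPKM at day 5, 689, 130 and 1195 FPKM at day 7, 1260, 176 and 1143 FPKM at day 10, and 1734, 152 and 1142 FPKM at day 14. The 4 replicate 2 libraries (130 to 176 FPKM) were below the other 7 sphere libraries (689 to 1734 FPKM). In glands Krt18 was 636, 699 and 938 FPKM in adult LG, 198, 196 and 294 FPKM in E17.5 LG and 594, 690 and 803 FPKM in E19.5 LG, and E17.5 did not overlap with either of the other ages. Its partner Krt8 was listed at 0 in all 20 libraries, so no ratio of the pair can be given. The pseudogene Krt8-ps, which holds 26.9% of the 50-base windows of the Krt8 transcript, was listed at 0.595 to 21.8 FPKM in the same libraries, and reads of the 2 genes cannot be told apart in those windows.

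Krt7, a duct keratin, followed Krt18 in the spheres, with 7.2 and 1.46 FPKM at day 5, 10.3, 0.997 and 10.1 FPKM at day 7, 15.9, 2.48 and 9.75 FPKM at day 10 and 17.4, 3.63 and 16.1 FPKM at day 14. Again replicate 2 of each day was the low one. In glands Krt7 was 1.23, 3.4 and 5.46 FPKM in adult LG, 0.565, 0.838 and 0.903 FPKM in E17.5 LG, and 3.21, 2.19 and 2.57 FPKM in E19.5 LG. Krt20, best known from intestinal and urothelial epithelium, was listed in spheres at 0.689 to 13.4 FPKM except in day 14 replicates 2 and 3, with 155 and 53.0 FPKM, and at no more than 0.485 FPKM in glands. Krt19, a duct marker, stayed at or below 1.03 FPKM in all 20 libraries and did not enter the tests, since its mean lay below 0.5 FPKM. Krt23 was at 0. Among the 18 keratins tested over the culture days, the simple keratins were Krt7, Krt18 and Krt20.

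Replicate 2 of the spheres stood apart at every culture day in several keratins of stratified epithelium. Krt1, a keratin of the upper epidermis, was at 109, 467, 1304 and 193 FPKM in replicate 2 at days 5, 7, 10 and 14, against 0 to 0.481 FPKM in the other 7 sphere libraries. Krt76, a type II keratin of the palate and gums, was at 20.5, 77.0, 93.7 and 25.7 FPKM in replicate 2 and at no more than 0.145 FPKM in the others. Krt90, a type II keratin, was at 43.2, 33.5, 25.6 and 12.2 FPKM in replicate 2 and at 0 to 2.18 FPKM in the others. In none of these 3 genes did replicate 2 overlap with the rest. They were picked on these values, and the share of all genes that split in this way was not counted. The replicate number set apart many other genes as well, with 9.36% of all genes called in the F test below.

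The mucosal pair followed later. Krt13 was at 0.324 FPKM in day 5 replicate 2, below the 1.55 FPKM of replicate 1, then at 16.5, 761 and 863 FPKM in replicate 2 of days 7, 10 and 14, while the other 7 sphere libraries had 0.248 to 2.55 FPKM. Its partner Krt4 was at 0.484, 1.56, 14.6 and 6.96 FPKM in replicate 2 and at no more than 0.101 FPKM in the others. Krt10, the usual partner of Krt1, was listed at no more than 0.307 FPKM in any of the 20 libraries. Krt80, a keratin made in many epithelia, was at 40.8 to 105 FPKM in replicate 2 and at 22.6 to 53.4 FPKM in the others, so the groups overlapped. Krt42 was at 28.9, 37.9, 23.6 and 4.65 FPKM in replicate 2 and at 3.68 to 8.0 FPKM in the others, so that its day 14 library lay within the range of the rest.

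**Figure D2:**
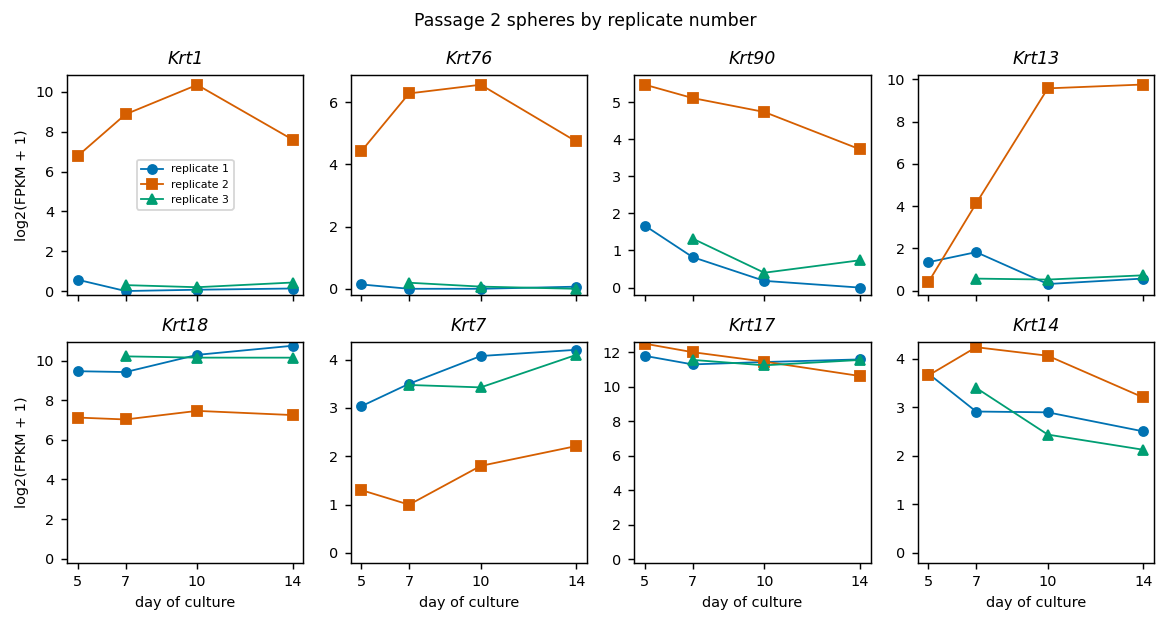
Log2(FPKM + 1) of 8 keratins against the day of culture in the 11 passage 2 sphere libraries, 1 line for each replicate number of the labels (no replicate 3 at day 5). Replicate 2 is high for Krt1, Krt76 and Krt90 and low for Krt18 and Krt7 at every day, joins the high side for Krt13 from day 7, and for Krt17 is the highest at days 5, 7 and 10 and the lowest at day 14.

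A limma F test of the replicate number, with culture day as a factor, was run after these values had been seen, so its p-values describe a split chosen on the same libraries. Each p tests replicates 2 and 3 against replicate 1 together. The differences printed beside it are those of replicate 2 against replicate 1, which had no p of their own. Of all genes tested, 9.36% were called. Krt1, Krt76 and Krt4 passed the filter of a mean of at least 0.5 FPKM only through replicate 2, so no p is given for them: replicate 2 lay above replicate 1 by 8.21 for Krt1, 5.45 for Krt76 and 2.17 for Krt4 on the log2(FPKM + 1) scale. Among keratins that also averaged at least 0.5 FPKM in the other 7 libraries, Krt90 differed by 4.09 (SE 0.21, adjusted p = 0.00012), Krt18 by -2.77 (SE 0.23, adjusted p = 0.00058) and Krt7 by -2.13 (SE 0.18, adjusted p = 0.00084), and these 3 were called with any 1 library left out. Krt5 differed by 1.19 (SE 0.21, adjusted p = 0.021) and was lost with no filter (adjusted p = 0.058) and on leaving out either day 5 library, day 7 replicate 1 or 2 or day 10 replicate 2. Krt13 (4.95, adjusted p = 0.099), Krt15 (3.12, adjusted p = 0.18) and Krt14 (0.79, adjusted p = 0.081) did not pass. Krt17 differed by 0.12 (adjusted p = 0.95). Replicate 3 differed from replicate 1 by -1.28 to 0.74 over the 18 keratins in the fit.

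Other genes of stratified epithelium moved with replicate 2. Of 17 listed desmosome genes, which anchor keratin filaments at cell contacts, Dsp, the plakin that binds the filaments, Perp, Jup, Pkp1 and Evpl were higher in replicate 2 than in replicate 1 and Pkp2 was lower. All were called in the F test of the replicate number, which takes replicates 2 and 3 together. Dsc1 was at 1.61, 4.26, 30.035 and 7.46 FPKM in replicate 2 and at most 0.0687 FPKM in the others, and passed the filter only through replicate 2. Evpl, an envelope plakin, was at 33.1, 33.9, 61.9 and 49.7 FPKM in replicate 2 of days 5, 7, 10 and 14, against 3.6 to 6.3 FPKM in the other 7. Of 10 hemidesmosome genes, 7 were tested and 0 were called (1 with voom). The hair follicle markers Tchh and Msx2 were both called, and Tchh was at 16.0 to 48.5 FPKM in replicate 2 against 1.4 to 3.8 FPKM in the others, while Hoxc13 reached 2.0 FPKM and Dsg4 1.6 FPKM. The summed level of the 4 hair follicle markers was 23.7, 42.2, 57.2 and 38.8 FPKM in replicate 2 and 1.53 to 4.96 FPKM in the others. Acta2, the smooth muscle actin of myoepithelial and mural cells, went the other way, with 1.02 to 4.72 FPKM in replicate 2 and 9.31 to 180 FPKM in the others. Replicate 2 differed from replicate 1 by -2.45, and the F test gave an adjusted p of 0.03. Replicate 3 departed from replicate 1 too, with 180 against 24.9 FPKM at day 14. Of the 5 markers of the cornified layer, Lor and Ivl were at 0 in all 20 libraries, Flg reached 3.3 FPKM, and the sum was nearly all Krt1. The part of these cell types in the result was not tested. In bulk RNA, more cells of a type and more RNA per cell cannot be told apart. The labels do not say what a replicate number stands for.

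The sequences upstream of 4 genes are shown because their levels went in opposite directions with the replicate number, with Krt76 and Krt90 high and Krt18 and Krt7 low in replicate 2. They are the 250 bases before the RefSeq start of each gene (build GRCm38.p6), 5′ to 3′ on the strand of the gene, with each match to one of 3 motifs, on either strand, in capitals. The motifs are the TATA box, spelled TATAAA, the GC box of Sp1, spelled GGGCGG, and the AP-1 core, spelled TGANTCA. Krt76 lies at chr15:101892921-101893170 (minus strand), Krt90 at chr15:101562951-101563200 (minus strand), Krt18 at chr15:102027966-102028215 (plus strand) and Krt7 at chr15:101412153-101412402 (plus strand).
Krt76: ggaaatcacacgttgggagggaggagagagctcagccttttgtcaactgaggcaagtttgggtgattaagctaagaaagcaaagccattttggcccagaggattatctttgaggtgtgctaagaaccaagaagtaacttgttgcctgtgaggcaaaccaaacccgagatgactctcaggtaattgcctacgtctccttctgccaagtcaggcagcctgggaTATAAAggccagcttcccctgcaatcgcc
Krt90: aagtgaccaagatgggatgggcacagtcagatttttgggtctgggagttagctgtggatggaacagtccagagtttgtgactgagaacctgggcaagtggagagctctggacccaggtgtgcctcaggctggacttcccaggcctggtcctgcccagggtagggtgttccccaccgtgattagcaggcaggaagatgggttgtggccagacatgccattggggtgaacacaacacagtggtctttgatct
Krt18: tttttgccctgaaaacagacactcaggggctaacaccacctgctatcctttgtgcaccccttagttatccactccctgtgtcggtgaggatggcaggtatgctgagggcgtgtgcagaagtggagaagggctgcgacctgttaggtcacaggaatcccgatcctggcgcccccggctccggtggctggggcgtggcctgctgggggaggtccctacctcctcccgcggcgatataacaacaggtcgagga
Krt7: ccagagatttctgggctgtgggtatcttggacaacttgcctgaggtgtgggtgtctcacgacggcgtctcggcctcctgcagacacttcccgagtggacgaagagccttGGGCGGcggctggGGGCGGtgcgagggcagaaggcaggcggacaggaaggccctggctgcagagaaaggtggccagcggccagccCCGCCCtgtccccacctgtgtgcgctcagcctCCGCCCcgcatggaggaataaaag

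The Krt76 window held 1 TATAAA and no other of the 3 motifs, and the Krt7 window held 4 GGGCGG and no other. The Krt90 and Krt18 windows held none of them. The GC content was 49.6% for Krt76, 55.6% for Krt90, 60.4% for Krt18 and 66.0% for Krt7, with 4, 1, 12 and 16 CpG. A window was found for 36 of the 53 keratins. TATAAA was in 17 of the 36 and in 12.4% of the 32851 windows counted. GGGCGG was in 2 of the 36 and in 32.7% of the windows, and TGANTCA in 1 of the 36, that of Krt13, and in 6.75%. Keratins were counted by gene and the 32851 by window, with 1 chromosome left out of the windows. These counts describe letters and say nothing of binding.

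The first question of the design was how spheres change between day 7 and day 14 of culture. No keratin passed the test (limma on log2(FPKM + 1), Benjamini-Hochberg over all genes tested). At day 14 against day 7, 0 of 18 keratins tested and 0% of 15744 genes were called. At an unadjusted p under 0.05 there were 1 keratin, Krt79, and 1557 genes. Krt14 differed by -0.91 (SE 0.42, adjusted p = 0.52), Krt18 by 0.50 (SE 1.15, adjusted p = 0.90) and Krt17 by -0.37 (SE 0.31, adjusted p = 0.71). Without replicate 2 of every culture day the count stayed at 0, Krt14 differed by -0.84 (adjusted p = 0.47), and Krt17 turned to 0.14.

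With the slope over days 5, 7, 10 and 14, 0 of 18 keratins and 2.14% of all genes were called. Of these, 4 keratins had an unadjusted p under 0.05: Krt20 (0.40 per day, SE 0.10, adjusted p = 0.069), Krt79 (-0.11 per day, adjusted p = 0.15), Krt17 (-0.084 per day, adjusted p = 0.19) and Krt14 (-0.12 per day, adjusted p = 0.19). Replicate 2 of the spheres deviated together over the days (r = 0.72 between days 7 and 10). Replicates 1 and 3 also correlated across numbers, as day 7 replicate 3 did with day 10 replicate 1 (r = 0.44). Between day 7 and day 14 replicate 3 it was 0.26, so a pairing of replicates 1 and 3 by number is not shown. With the replicate block 2 keratins were called: Krt7 rose by 0.12 per day (SE 0.021, adjusted p = 0.015) and Krt90 fell by 0.16 per day (SE 0.030, adjusted p = 0.017), with 5.02% of all genes called. With the block Krt14 differed by -0.11 per day (adjusted p = 0.069) and Krt20 by 0.39 per day (adjusted p = 0.066). Without day 14 replicate 1 and with no block, Krt20 was the 1 keratin called (0.54 per day, adjusted p = 0.022). Without replicate 2 of every day, 0 were called. Krt7 then had 0.11 per day (adjusted p = 0.076).

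The second question was how the glands differ with age. In the gland libraries 9 keratins passed the filter. In E17.5 LG against adult LG, 2 of the 9 were called higher, against 29.1% of all genes tested, and 4 lower, against 24.9%. Krt15 was higher at E17.5 by 3.38 (SE 0.54, adjusted p = 0.00091). Krt4, the other, was at 0 in all 3 adult libraries and at 0.482, 0.584 and 1.52 FPKM at E17.5. It passed the filter only through the embryonic libraries and is given as a difference of 0.86 (SE 0.20), with an adjusted p of 0.013 in the fit with no filter. Krt18 (229 ± 56.2 against 758 ± 160 FPKM, SD, n = 3) differed by -1.73 (SE 0.23, adjusted p = 0.00031). Krt17 (16.0 ± 0.592 against 64.7 ± 40.5 FPKM) differed by -1.78 (adjusted p = 0.0031), Krt80 (11.8 ± 1.38 against 39.5 ± 14.4 FPKM) by -1.60 (adjusted p = 0.0014) and Krt7 by -1.18 (adjusted p = 0.018). Krt7 was lost without adult replicate 2 (adjusted p = 0.054) or E17.5 replicate 1 (adjusted p = 0.06).

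The lower calls did not hold under another scaling, and which scaling fits these libraries better was not tested. With FPKM rescaled to the recovered reads the median difference of all genes between E17.5 and adult moved from 0.053 to 0.57 and none of the 4 was called: Krt18 had -0.71 (adjusted p = 0.18), Krt17 -0.80 (adjusted p = 0.28), Krt80 -0.63 (adjusted p = 0.27) and Krt7 -0.61 (adjusted p = 0.26). Under that scaling 3 of 9 keratins were called, all higher: Krt15 (3.98), Krt4 (0.88) and Krt79 (0.86). Of all genes 57.4% were called there, in either direction. Relative to the moved median the 4 keratins lay lower, and Krt15, Krt4 and Krt79 higher.

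In E19.5 LG against adult LG, 4 keratins were called higher, against 30.3% of all genes, and 1 lower, against 23.9%. Krt15 was higher by 3.64 (SE 0.54, adjusted p = 0.00065) and Krt79 by 0.78 (adjusted p = 0.026). The other 2 passed the filter only through embryonic libraries: Krt4, at 1.07, 1.1 and 0.957 FPKM in E19.5, differed by 1.03 (adjusted p = 0.0057 with no filter), and Krt36, a hair keratin at 2.19, 0.399 and 1.14 FPKM in E19.5, by 0.90 (adjusted p = 0.052 with no filter). Krt80 differed by -1.07 (adjusted p = 0.011). Under rescaling (median of all genes 0.089 moving to 0.52) the 4 higher calls stood and Krt80 had -0.21 (adjusted p = 0.73). Krt79 was not called without adult replicate 3 or any 1 of the E19.5 libraries, and Krt36 not without adult replicate 1 or 3 (adjusted p = 0.08 and 0.057) or, where it missed the filter, E19.5 replicate 1 or 3. Krt18 (-0.11) and Krt17 (-0.50) were not called and had the other sign after rescaling, 0.79 and 0.37.

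In E19.5 against E17.5 LG, 1 of 9 keratins was called higher, against 1.11% of all genes, and 0 lower, against 0.624%. Krt18 was higher at E19.5, with 696 ± 104 against 229 ± 56.2 FPKM (SD, n = 3) and a difference of 1.61 (SE 0.23, adjusted p = 0.018). It was higher in all 3 libraries. Krt17 differed by 1.29 (SE 0.36, adjusted p = 0.13) and Krt7 by 1.04 (SE 0.34, adjusted p = 0.19), again with groups that did not overlap. After rescaling Krt18 had an adjusted p of 0.18. With only the 2 embryonic ages in the fit 5 of 12 keratins were called higher, and 12.4% of all genes were called in either direction. The 5 were Krt18, Krt17 (1.29, adjusted p = 0.0046), Krt7 (1.04, adjusted p = 0.011), Krt80 (0.53, adjusted p = 0.046) and Krt13 (0.80). Krt13, at 0.0706 to 0.206 FPKM at E17.5, passed the filter only through E19.5, so no p is given for it. Leaving out E17.5 replicate 1 or 2 or E19.5 replicate 2 or 3 gave 0 calls (0.269% to 0.361% of all genes called). Leaving out adult replicate 1 gave 2 (2.84% of all genes) and leaving out adult replicate 3 gave 3 (9.43%).

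Markers of other cell types differed between the ages too. The 7 mesenchyme markers summed to 4215 to 5159 FPKM in the 6 embryonic libraries and 154 to 302 FPKM in the adult ones. The 4 myoepithelial markers did not go 1 way. Acta2 was at 1007 to 1093 FPKM at E19.5, 139 to 296 FPKM at E17.5 and 105 to 524 FPKM in adult LG. Myl9 was at 200 to 274, 101 to 138 and 24.3 to 90.8 FPKM in the same order. Cnn1 was highest in adult LG, with 3.70 to 4.33, 1.14 to 1.28 and 14.6 to 84.7 FPKM. Myh11 reached at most 0.0313 FPKM. Of the 4 acinar markers, 2 (Lcn11 and Bhlha15) were at 0 in adult LG and all 4 summed to 1.46 to 7.12 FPKM there. The part of these cell types in the keratin differences was not tested.

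The third question was how spheres differ from the gland. Of 16 keratins tested at day 7 against adult LG, 4 were called higher, against 14.2% of all genes, and 0 lower, against 21.1%. Krt17 was at 3220 ± 821 FPKM in day 7 spheres and 64.7 ± 40.5 FPKM in adult LG (SD, n = 3), a difference of 5.75 (SE 0.44, adjusted p = 0.00038). Krt14 was at 11.3 ± 5.86 against 0.457 ± 0.194 FPKM, a difference of 2.98 (SE 0.36, adjusted p = 0.0017). Krt42, a type I keratin of the nail and hair region, was at 3.98, 37.9 and 6.71 FPKM against 0 to 0.52 FPKM (3.23, SE 0.74, adjusted p = 0.017), and Krt20 at 6.61, 1.99 and 10.3 FPKM against 0 to 0.136 FPKM (2.61, SE 0.47, adjusted p = 0.0075). Krt14, Krt20 and Krt42 averaged under 0.5 FPKM in adult and E17.5 LG and passed the filter only through the spheres, and with no filter their adjusted p was 0.0038, 0.016 and 0.032. The filter thus has a part in the count of 4 higher and 0 lower. Krt42 was not called without adult replicate 1 or 2 (adjusted p = 0.054 and 0.056). Krt18 differed by -0.65 (adjusted p = 0.54), with 0.48 after rescaling. The 4 calls also held after rescaling (median of all genes -0.082 moving to 0.51), where Krt79 (1.12) and Krt88 (0.86) were called as well. Krt88, at 0 to 0.581 FPKM in adult LG, passed the filter only through the spheres. Without day 7 replicate 2, the same 4 keratins were called higher and Krt75, a hair follicle companion layer keratin, was called lower (-0.91). Krt75 then passed the filter only through adult LG, where it had 8, 11 and 19 reads, so no p is given for it.

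At day 7 against E17.5 LG, 6 of 16 keratins were called higher, against 18.1% of all genes, and 0 lower, against 29.6%. These were Krt17 (7.54, SE 0.18, adjusted p = 1.8e-06), Krt42 (3.39, adjusted p = 0.01), Krt14 (2.97, SE 0.33, adjusted p = 0.00071), Krt20 (2.16, adjusted p = 0.011), Krt80 (1.28, adjusted p = 0.0042) and Krt88 (0.65, adjusted p = 0.036). Of these, Krt14, Krt42, Krt20 and Krt88 passed the filter only through the spheres, and with no filter their adjusted p was 0.0015, 0.019, 0.019 and 0.061. The filter thus has a part in the count of 6 higher and 0 lower too. This contrast shares the day 7 libraries with the one before. Without day 7 replicate 2 there were 9 calls higher and 1 lower among 14 keratins tested, with 53.1% of all genes called. Krt18 (2.01, adjusted p = 0.003), Krt7 (2.67, adjusted p = 7.8e-05) and Krt90 (0.86) came in on the higher side, and Krt15 was lower (-2.14, adjusted p = 0.03). Krt90, at 0.0493 to 0.409 FPKM at E17.5, passed the filter only through the spheres, so no p is given for it. With all 3 libraries Krt18 had 1.08 (adjusted p = 0.30). Krt88 was lost in 5 of the 6 fits that left out 1 library, all but that without day 7 replicate 2.

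**Figure D3:**
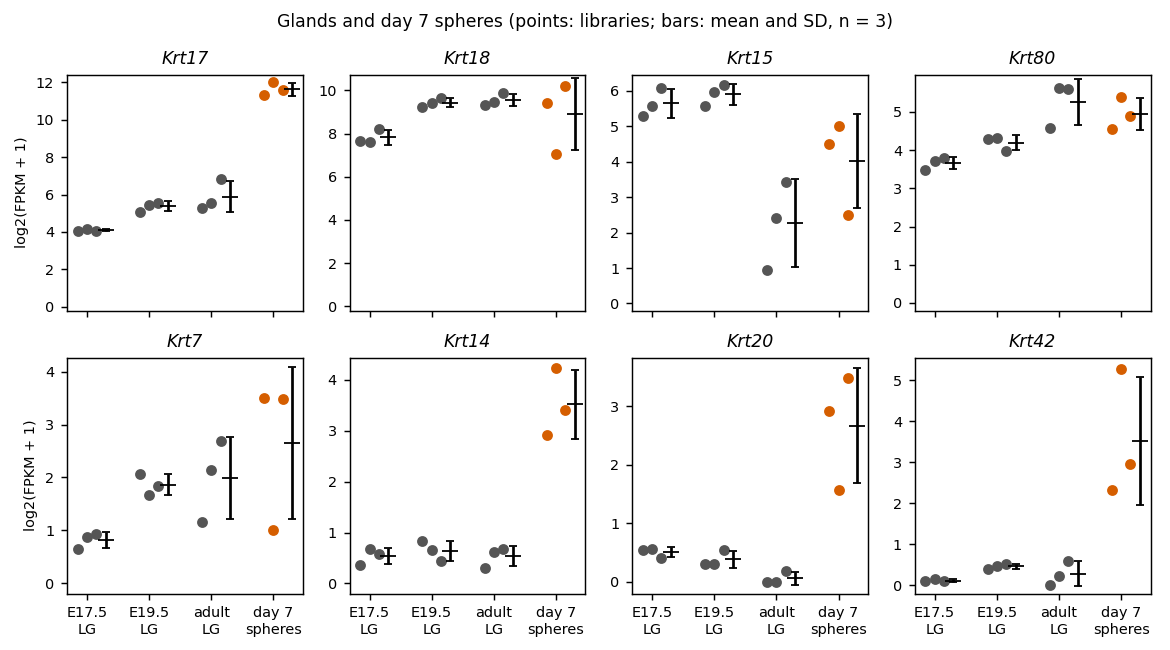
Log2(FPKM + 1) of 8 keratins in E17.5, E19.5 and adult LG and in day 7 spheres of passage 2; points are libraries in the order of their replicate numbers and bars the mean and SD of 3. Spheres lie above all glands for Krt17, Krt14, Krt20 and Krt42, while the day 7 points of Krt18 spread from below to above the gland values and the lowest day 7 point of Krt7 lies just above the E17.5 libraries.

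The spheres and the glands also differ in what else the libraries hold. The 7 mesenchyme markers summed to 0.476 to 3.67 FPKM in spheres, the 3 endothelial markers to at most 0.13 FPKM and the 4 leukocyte markers to at most 2.84 FPKM, all far below the glands. Cdh1, the epithelial cadherin, was at 388 to 916 FPKM in spheres and 121 to 178 FPKM in glands, while Epcam was listed at 0 in all 20 libraries. How much of the keratin differences follows the share of epithelial cells was not tested.

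Genes that work with keratins were counted in the same way, from lists chosen with earlier results of these data known. At day 7 against adult LG, 7 of 9 desmosome genes tested were higher and 0 lower, against 14.2% and 21.1% of all genes, with a median difference of 1.46 against -0.082 over all genes. With 1 library left out 3 to 6 were called, 4 without adult replicate 1 and 3 without adult replicate 2. Pkp1, a plakophilin of stratified epithelium, was at 452, 921 and 571 FPKM in day 7 spheres and 1.8, 3.3 and 5.7 FPKM in adult LG (7.16, SE 0.41, adjusted p = 0.00016). Dsp (2.87, adjusted p = 0.0019), Perp (1.71, adjusted p = 0.018) and Evpl (2.36, adjusted p = 0.035) were higher too. Of 9 hemidesmosome genes tested, 2 were higher and 1 lower, with 1 called without adult replicate 1 or 2 and 6 without adult replicate 3, and among the regulators Klf5 was higher (3.22, adjusted p = 0.0082) and Esrp2 lower (-1.23, adjusted p = 0.014). At day 7 against E17.5 LG, 7 of 10 desmosome genes and 5 of 8 hemidesmosome genes were higher and 1 hemidesmosome gene, Dst, was lower, against 18.1% and 29.6% of all genes. At E17.5 Itga6, Itgb4, Itga3 and Col17a1 reached at most 0.368, 0.429, 0.454 and 0.173 FPKM, and Dsc1 and Dsc2 0.127 and 0.0731 FPKM. They passed the filter only through the spheres, as did Col17a1 and Dsc1 against adult LG (at most 0.136 and 0.0822 FPKM there). The filter thus has a part in these counts. The hemidesmosome count was 3 with the replicate block, with a mean of at least 1 FPKM and without E17.5 replicate 1 or 3. Of 7 desmosome genes tested in the glands, 0 were higher and 3 lower at E17.5 against adult LG (29.1% and 24.9% of all genes), with 5 called without adult replicate 3. At E19.5 against adult LG 2 were higher and 3 lower (30.3% and 23.9% of all genes), with 2 higher and 0 lower after rescaling or voom and 2 called without adult replicate 1 or 2, E17.5 replicate 2 or E19.5 replicate 1 or 2. At day 14 against day 7 and for the slope 0 desmosome and hemidesmosome genes were called, but for the slope the replicate block and the fit without replicate 2 of every day each gave 1 desmosome gene, lower, and voom 1 hemidesmosome gene. Trp63, the basal regulator p63, was listed at no more than 0.75 FPKM in the 20 libraries.

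Hair and root sheath keratins were low throughout. The highest of the 15 hair keratins were Krt36 at 2.19 FPKM in E19.5 replicate 1 and Krt84 at 1.55 FPKM in day 14 replicate 3, and the highest root sheath keratin was Krt75 at 2.51 FPKM in day 14 replicate 2. The hair keratins share sequence, with 43.5% of windows for Krt81 and 43.3% for Krt86. Of the unclassed keratins, Krt88 reached 1.62 FPKM and Krt222 0.591 FPKM. Krt12, the corneal keratin, stayed at or below 0.364 FPKM, and Krt78, Krt9, Krt77, Krt24 and Krt2 at or below 0.718 FPKM. In the annotation 12 keratins overlap an exon of a gene on the other strand, among them Krt7, Krt80 and Krt8, and whether reads were counted by strand is not given in the sources used here.

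Spheres of passage 10 were compared by value only, since there is 1 library and its table lists 52747 genes from another gene list. In this library 15 keratins had at least 10 FPKM. The basal pair was listed with Krt14 at 7065 FPKM and Krt5 at 4931 FPKM, and the stress keratins with Krt6a at 2094 FPKM, Krt17 at 1668 FPKM, Krt16 at 939 FPKM and Krt6b at 743 FPKM. The simple keratins were Krt8 at 414 FPKM, Krt18 at 306 FPKM, Krt19 at 124 FPKM and Krt7 at 74.4 FPKM. Krt13 stood at 333 FPKM, Krt15 at 216 FPKM, Krt1 at 55.5 FPKM, Krt4 at 14.8 FPKM and Krt80 at 12.3 FPKM. Krt20 was at 0.262 FPKM.

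Of the 15 keratins, 11 had a day 7 mean in passage 2 under 0.1 of the passage 10 value, against 50.5% of all genes at that level. In the pairs Krt5 with Krt14 and Krt8 with Krt18, no partner was listed near 0 here. Since genes such as Rpl8 and Eef1a1 differ in the same way between the tables, passage and gene list cannot be told apart.

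**Figure D4:**
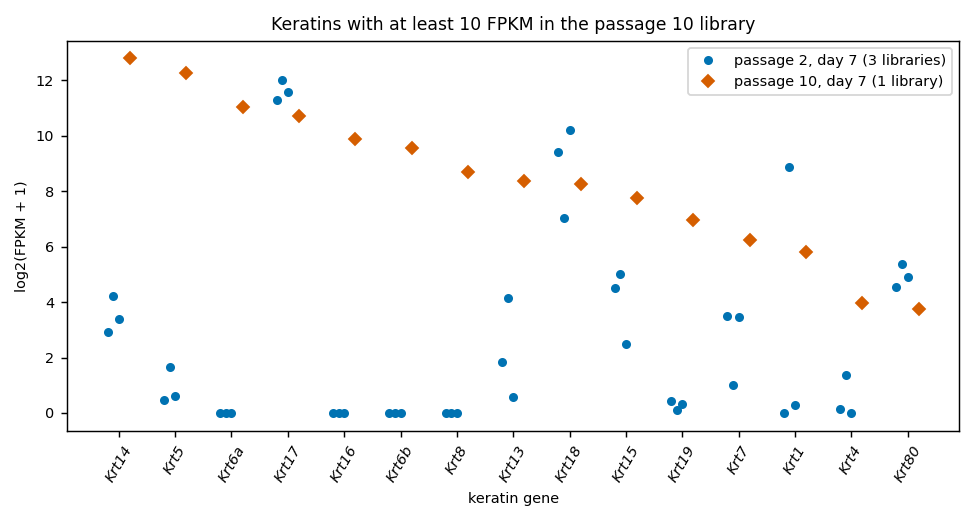
Log2(FPKM + 1) of the 15 keratins with at least 10 FPKM in the passage 10 library (diamond, 1 library) beside the 3 day 7 libraries of passage 2 (circles), ordered by the passage 10 value. Krt17, Krt18 and Krt80 lie higher in at least 2 of the 3 passage 2 libraries, and Krt6a, Krt16, Krt6b and Krt8 lie at 0 in passage 2; the tables have different gene lists.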

How the data were processed

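RNA was poly-A selected and made into libraries with the NEBNext Ultra kit. The submitters' processing notes name CASAVA 1.8, HISAT2 2.0.5, featureCounts 1.5.0-p3 and the build NCBIM37, and DESeq2 was the authors' own test. Each library has its own deposited table, in FPKM. Reads recovered from the FPKM steps with GENCODE M21 exon lengths were whole within 0.01, up to 1000 reads, for 92.6% to 93.6% of genes (93.4% in passage 10). Symbols came from GENCODE M21, which held 52403 of 52636 Ensembl identifiers.

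Tests used limma 3.58.1 (lmFit, eBayes with trend, R 4.3.3) on FPKM after adding 1 and taking log2. Genes averaging under 0.5 FPKM across the fitted libraries were left out, with Benjamini-Hochberg adjustment over all genes and a threshold of 0.05. The tissue comparisons shared 1 fit of 9 libraries. Fold changes on this scale understate those of low genes. The fits were tested on simulated data. Python 3.11.15 made the tables.

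The keratins, classes, partner and marker lists were chosen with earlier results of these data known. Named with values were the 13 basal, stress and simple keratins, any keratin called or with a group mean of at least 5 FPKM, and the highest of other classes. The test of the replicate number and the fits without replicate 2 were added after the values had been seen. In spheres same-numbered libraries correlated in their deviations from the group means (mean r = 0.46 over 15 pairs, -0.22 over 30 other pairs), in glands they did not (mean r = -0.0095 over 9 pairs). Deviations within a group sum to 0, so the negative mean of the other pairs largely mirrors the same-numbered pairs and is not separate evidence. The negative pairs in spheres all involved replicate 2, while pairs of replicate 1 with replicate 3 had r from 0.135 to 0.438. Recovered reads cover counting error only. One gene of the regulator list is not reported here.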

Additional observations from a re-analysis of the deposited data

Results flagged for a closer look

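Of the keratins, 4 that were listed at 0 FPKM in all 20 libraries of the comparisons had signal in the passage 10 sphere library, which enters no test: Krt16 at 939.38 FPKM, Krt6b at 743.23 FPKM, Krt8 at 413.83 FPKM and Krt23 at 5.4543 FPKM. Passage 10 was counted on another gene list, and 577 of 5332 genes with at least 10 FPKM there were also at 0 in the 20 libraries.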

How the results depend on the processing

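Pseudocount, filter, scaling, tool, replicate block, samples in the fit and each library left out in turn were varied. Of 125 counts of keratins called under alternatives, 106 stayed within 1.5 times of the reported count. At day 14 against day 7 the count was 0 under each alternative run, and Krt18 there had -0.44 without day 7 replicate 2, -0.19 without day 14 replicate 1, with a range of -0.44 to 1.56 over left-out libraries, while Krt17 had 0.14 without replicate 2 of every culture day. For the slope, the replicate block gave 2 of 18 (5.02% of all genes called) and leaving out 1 library 0 to 1 (1.68% without day 14 replicate 1). The replicate block moved no other count of keratins called past 1.5 times, and in glands, where the numbers do not pair the libraries, Krt36 at E19.5 against adult was the 1 call lost (adjusted p = 0.06). For E17.5 against adult (6 of 9 called) no filter gave 10 of 44, with 29.1% of all genes called. Rescaled FPKM gave 3 of 9 (57.4% of all genes) and limma-voom on recovered reads 3 of 9 (60.1%). For E19.5 against adult (5 of 9 called) no filter gave 11 of 44 (28% of all genes called), a mean of at least 1 FPKM 3 of 7 (59.4%) and left-out libraries 3 to 6. There Krt17 turned to 0.37 (rescaled) and 0.36 (voom), and Krt18 to 0.79, 0.77 and, without adult replicate 3, 0.050 (left-out libraries -0.23 to 0.050). For E19.5 against E17.5 (1 called) rescaling and voom gave 0 (0.915% and 0.274% of all genes called). Only the 2 groups in the fit gave 5 of 12 (12.4%) and left-out libraries 0 to 3. For day 7 against adult (4 called) voom gave 9 of 16, with 45.9% of all genes called. Krt18 turned to 0.48 (rescaled), 0.45 (voom) and 0.28 (without day 7 replicate 2, left-out libraries -1.31 to 0.28). For day 7 against E17.5 (6 called) left-out libraries gave 5 to 10, the 10 without day 7 replicate 2 (of 14 tested, with 53.1% of all genes called). Of the counts of desmosome, hemidesmosome and regulator genes called, 316 stayed within 1.5 times, 12 rose and 47 dropped past it. Where a setting moved a value, the cause was not tested.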
